A study of Mus musculus with 2 samples.

Results

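The cells described here are 388 macrophages of mouse epididymal fat that carry transcripts of at least 3 of the genes Ccr2, Retnla, Fcrls, Cd226, Plbd1 and Ifitm6, called Ccr2 Retnla macrophages below. They were found in the stromal vascular fraction, the non-adipocyte cells left after digestion of the fat with Liberase, of male C57BL/6J wild-type mice fed either the standard diet (16 weeks) or high-fat diet (8 weeks, or 16 weeks). Every suspension was stained with TotalSeq hashtag antibodies, which carry a DNA barcode, and the suspensions were pooled into a single BD Rhapsody run amplified by TAS-Seq. The pool gave 1 transcriptome library and 1 hashtag library, so there was 1 pooled sample, no replicate and no test between groups. The pool split into 9 hashtag populations, named A0301 to A0305 and A0307 to A0310, and since no label used here says which diet a hashtag marks, the populations are given one by one and diets were not compared.

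Of 11750 cells with a hashtag call, 10521 had at most 25% mitochondrial reads and were kept. A gene was counted as on in a cell at 50 CPM, that is, counts scaled to the same total in every cell. A cell was a macrophage with at least 3 of Adgre1, C1qa, C1qb, C1qc, Csf1r and Mrc1 on and under 300 CPM in sum for Lum, Dpt, Cdh5 and Cd3g, and 3169 cells were macrophages. The 388 members also had at least 3 of the 6 genes Ccr2, Retnla, Fcrls, Cd226, Plbd1 and Ifitm6 on, and under 3 of the resident genes Lyve1, Cd209f, Cbr2 and F13a1. The remaining macrophages were 148 resident macrophages, with at least 3 of those 4 resident genes on, and 2633 other macrophages.

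Macrophages of adipose tissue come from long-lived resident cells and from blood monocytes that enter the tissue and mature there. CCR2 is the receptor for the chemokine CCL2 and is known for drawing monocytes out of the bone marrow and into inflamed tissue, and its transcript is lost as many of these cells mature. Retnla encodes the secreted protein RELM-alpha, a gene known to be induced by interleukin 4 and interleukin 13 through STAT6. In obese fat many macrophages take up lipid and express Trem2, Cd9, Gpnmb and lysosomal enzymes, and these are called lipid-associated macrophages. The data here are transcript levels at a single moment per cell, so recruitment from blood, which gives the population its working name, was not measured.

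The 6 genes that chose the members were high in them by construction, and their levels are a description. Summed over all members, Ccr2 stood at 671 CPM, against 51.9 CPM in other macrophages, 237 in resident macrophages and 755 in dendritic cells. Retnla stood at 16820.4 CPM in members and 737 CPM in other macrophages, but it was highest in resident macrophages, at 27569 CPM. Fcrls, a scavenger receptor related to Fc receptors, was the gene of the 6 that was highest in members among these 4 groups, at 664 CPM against 43.0, 316 and 184. Cd226, an adhesion receptor best known from T and NK cells, reached 160.1 CPM in members and 162 CPM in dendritic cells, and Plbd1, which encodes a phospholipase B-like protein, was far higher in dendritic cells (1642 CPM) than in members (319.8 CPM). Ifitm6, of the interferon-induced transmembrane family, stood at 157 CPM in members and 168 CPM in dendritic cells. The 86 dendritic cells had under 3 macrophage genes on, the same limit of 300 CPM, and at least 3 of Cd209a, Flt3, Tnip3, Clec10a, Klrd1 and Zbtb46 on.

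The promoters of Retnla, Fcrls and Ear2 are shown because Retnla and Fcrls are rule genes and Ear2 is a gene outside the rule whose level in members of every hashtag population lay above all levels in other macrophages. The sequences are from RefSeq on GRCm38.p6 and run from 250 bases before to 50 bases after the start of the gene, 5′ to 3′ on the gene's own strand. Capitals mark matches, on either strand, to a core for PU.1 (GAGGAA), C/EBP (TTGCNNAA) or STAT6 (TTCNNNNGAA).
Retnla, chr16:48842359-48842658, plus strand: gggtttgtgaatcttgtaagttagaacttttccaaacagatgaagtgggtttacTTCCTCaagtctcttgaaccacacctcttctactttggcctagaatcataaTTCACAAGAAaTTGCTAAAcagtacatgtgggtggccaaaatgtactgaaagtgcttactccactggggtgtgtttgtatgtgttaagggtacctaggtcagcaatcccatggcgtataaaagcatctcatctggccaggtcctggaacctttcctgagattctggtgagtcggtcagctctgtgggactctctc
Fcrls, chr3:87263475-87263774, minus strand: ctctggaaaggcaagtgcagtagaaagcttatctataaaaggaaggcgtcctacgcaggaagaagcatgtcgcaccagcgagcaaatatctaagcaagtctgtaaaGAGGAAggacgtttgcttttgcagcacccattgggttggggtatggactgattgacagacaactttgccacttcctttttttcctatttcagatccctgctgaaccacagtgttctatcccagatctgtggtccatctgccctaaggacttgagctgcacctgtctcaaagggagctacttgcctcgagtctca
Ear2, chr14:44102404-44102703, plus strand: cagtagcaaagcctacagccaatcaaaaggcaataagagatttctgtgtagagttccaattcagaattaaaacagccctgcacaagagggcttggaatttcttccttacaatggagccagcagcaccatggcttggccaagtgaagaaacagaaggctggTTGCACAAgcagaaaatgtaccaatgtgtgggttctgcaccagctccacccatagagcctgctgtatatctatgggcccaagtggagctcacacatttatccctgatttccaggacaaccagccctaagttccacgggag
The Retnla promoter held all 3 cores: the PU.1 core begins 196 bases before the start, the STAT6 core 145 bases before it and the C/EBP core 134 bases before it, and the last 2 do not overlap. In Fcrls a PU.1 core begins 144 bases before the start, and in Ear2 a C/EBP core begins 90 bases before it. Of 32851 promoters of this length, 28.3% hold the PU.1 core, 10.8% the C/EBP core, 6.95% the STAT6 core and 7.81% an AP-1 core (TGANTCA). Of the 5 rule genes whose promoters were searched, Ccr2, Plbd1 and Ifitm6 have a match to none of these letters. PU.1 was thus matched in 2 of 5, C/EBP and STAT6 in 1 of 5 each and AP-1 in 0 of 5. The promoter of Cd226, the remaining rule gene, was left out of the search, so these counts do not cover it. A match is a string of letters in the window and no record of binding.

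The members were 12.2% of the 3169 macrophages (95% exact binomial interval 11.1 to 13.4) and 3.69% of all kept cells (3.34 to 4.07). Such intervals cover counting error only. In hashtag population A0301 they were 28 of 51 macrophages, a share of 54.9% (40.3 to 68.9). The share was 44.2% (30.5 to 58.7) in A0302, with 23 of 52, and 38.8% (27.1 to 51.5) in A0303, with 26 of 67.
The shares of A0304, A0305 and A0307 were 25.1% (20.5 to 30.1; 84 of 335), 24.9% (20.8 to 29.3; 103 of 414) and 17.6% (14.2 to 21.4; 81 of 461). In A0308, A0309 and A0310 the members were few in a large macrophage compartment: 2.66% (1.50 to 4.36; 15 of 563), 1.74% (0.904 to 3.03; 12 of 688) and 2.97% (1.71 to 4.78; 16 of 538). The lowest, median and highest share were therefore 1.74%, 24.9% and 54.9%.
Measured against all kept cells the order changed. Members were 8.43% of the kept cells of A0305, 7.64% of A0304 and 6.61% of A0307, and 3.40%, 2.39% and 2.46% of A0301, A0302 and A0303. The lowest shares of kept cells were 1.04%, 0.815% and 1.31%, in A0308, A0309 and A0310. Macrophages as a whole ranged from 5.39% of kept cells (A0302) to 46.7% (A0309), so a low share among macrophages can go with many other macrophages as well as with few members.

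**Figure D1:**
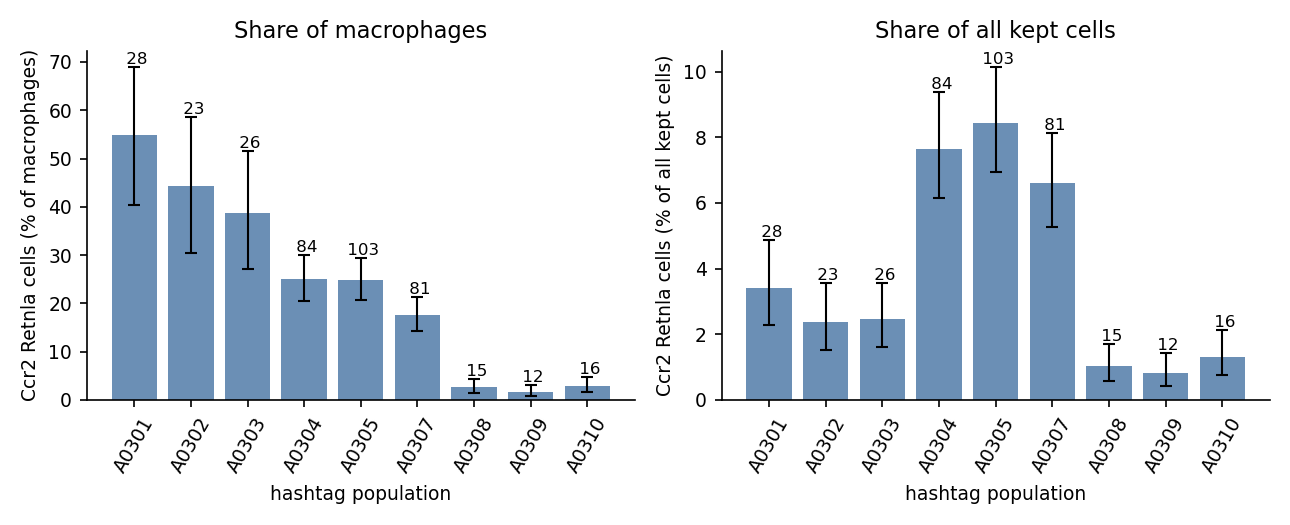
Share of Ccr2 Retnla macrophages in each of the 9 hashtag populations, in percent of macrophages (left) and of all kept cells (right). Bars are shares, lines are 95% exact binomial intervals for counting error, and the number over each line counts the members. The left panel runs from 54.9% in A0301 to 1.74% in A0309, while the right panel is highest in A0305, at 8.43%.

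Within every hashtag population each of the 6 rule genes was higher in members than in other macrophages. The rule chose members by these genes, so this direction and any lack of overlap below follow from the choice and support nothing. In the order A0301, A0302, A0303, A0304, A0305, A0307, A0308, A0309 and A0310, Ccr2 stood at 963, 784, 1175, 631, 607, 630.2, 390.1, 710 and 594 CPM in members. In other macrophages it stood at 29.6, 146, 67.1, 60.4, 39.4, 64.2, 65.5, 34.7 and 52.6 CPM, so the lowest member value, 390.1 CPM in A0308, lay above the highest other value, 146 CPM in A0302. Retnla in the same order of populations was 22937, 34724, 41497, 15414, 14962, 16857, 4845, 5649 and 1994 CPM in members. Its values were highest in A0303 and lowest in A0310, a range of over an order of magnitude among cells that all met the same rule.
Retnla in other macrophages reached 1985 CPM at most, in A0305, which is just under the lowest member value of 1994 CPM. Fcrls was 1056, 814, 1239, 702, 652, 629, 285, 215 and 335 CPM in members, again highest in A0303 and lowest in A0309. In other macrophages Fcrls ranged from 20.5 to 76.5 CPM, below every member value. Cd226 in members ranged from 71.9 CPM in A0310 to 435 CPM in A0302, Plbd1 from 92.4 CPM in A0309 to 514 CPM in A0302, and Ifitm6 from 30.4 CPM in A0308 to 399 CPM in A0302.

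Single cells varied widely around these sums. Ccr2 was on in 88.4% of members and 13.5% of other macrophages, Retnla in 84.8% and 11.8%, and Fcrls in 88.7% and 19.2%. Plbd1 was on in 69.6% of members, Ifitm6 in 47.7% and Cd226 in 42.3%. The median member held 14213 CPM of Retnla, with quartiles at 2694 and 31814 CPM, and 544 CPM of Ccr2, with quartiles at 174 and 1249.5 CPM.
Any read of Ccr2 was seen in 91.8% of members, 28.1% of other macrophages and 9.94% of fibroblasts, which should lack the gene. The median depth was 54719 reads in members, 80557 in other macrophages and 44555 in fibroblasts. After every cell was thinned to 5000 reads the shares with Ccr2 were 78.4%, 11.0% and 2.99%. For Retnla the thinned shares were 84.3%, 11.7% and 1.11%, and for Fcrls 78.9%, 12.2% and 1.82%. The Retnla values carry a gap: the lowest nonzero count in the table is 57 reads, and with each 0 set to 1 read less than that minimum the ratio of members to other macrophages is 13.7 in place of 22.8. The same filling turns the ratio of 33.9 for Plbd1 into 5.93.

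**Figure D2:**
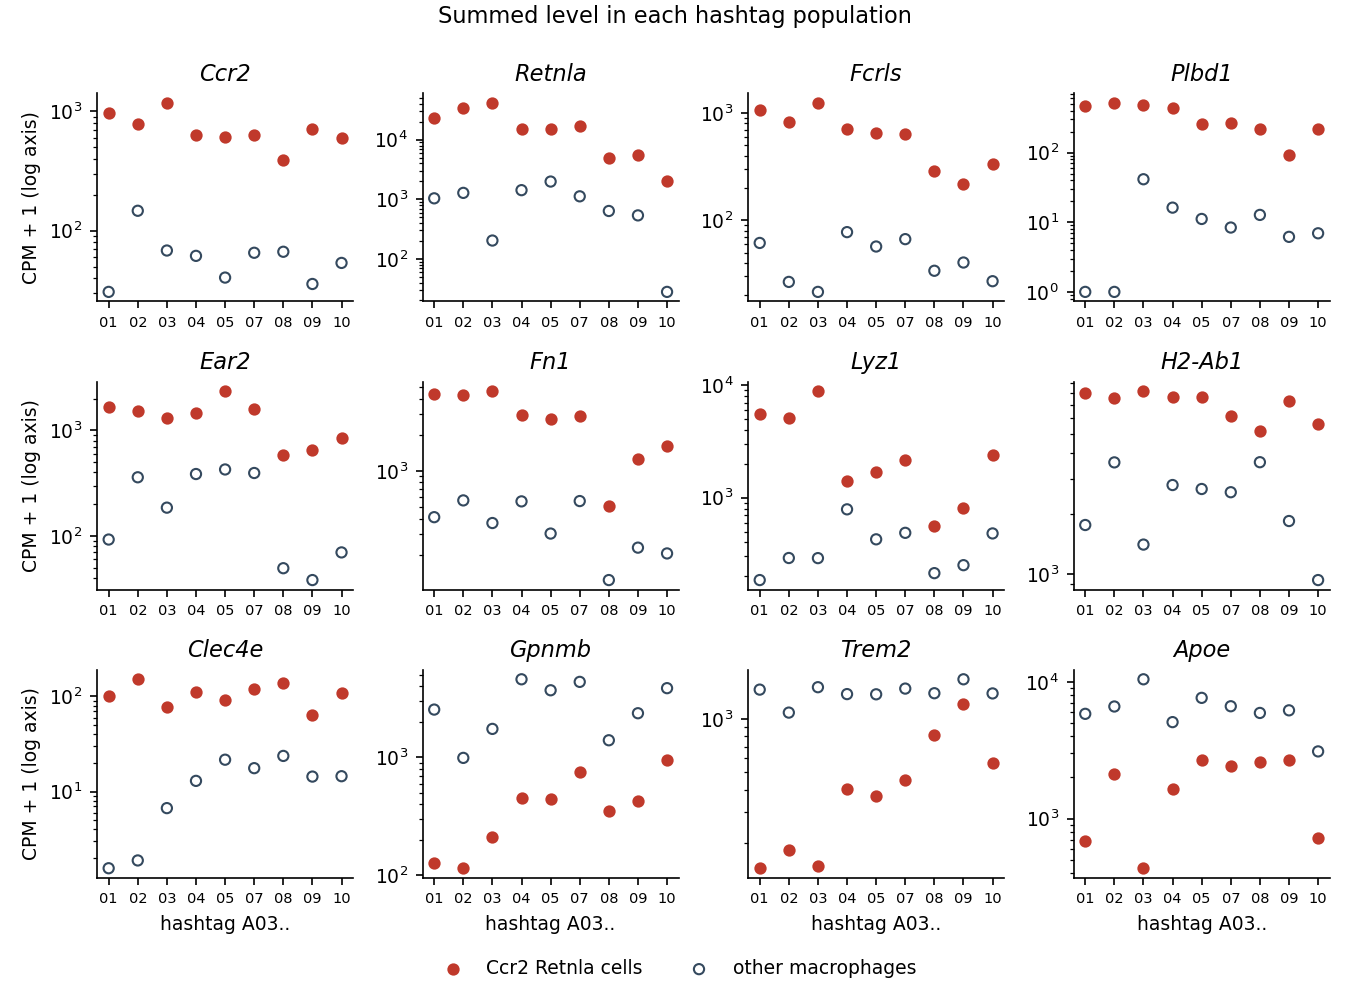
Summed level of 12 genes in members (filled points) and other macrophages (open circles) of each hashtag population, as CPM plus 1 on a log axis. The first 4 panels are genes of the rule. Ear2, Clec4e and H2-Ab1 in members lie above every value of other macrophages, and Gpnmb and Apoe lie below every one.

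The members met the rule to different degrees. All 6 genes were on in 74 members, 5 in 83, 4 in 83 and 3 in 148, and the commonest pattern after all 6 was Ccr2, Retnla and Fcrls alone, in 53 cells. Just outside, 298 macrophages had 2 of the 6 genes on, with 245 CPM of Ccr2 and 4562 CPM of Retnla, against 417 and 8817 CPM in the 148 members with 3 genes on. The limit on macrophage genes also ran through a continuum: 125 members had exactly 3 of those genes on, with 740.3 CPM of Ccr2 and 91.0 CPM of C1qc, and 125 cells that met every other condition had 2 on, with 972 CPM of Ccr2 and 43.7 CPM of C1qc. On the resident side 41 members had 2 resident genes on and 28 cells had exactly 3, with Lyve1 at 37.4 and 926 CPM. Of the 148 resident macrophages, 51 (34.5%) had at least 3 of the 6 population genes on, and were kept out of the members by their resident genes alone.

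The members carried macrophage transcripts at lower levels than other macrophages for part of the markers. C1qc, a subunit of complement C1q, stood at 961 CPM against 1772 CPM, and Adgre1, which encodes F4/80, at 340.4 against 618 CPM, and both were lower in all 9 populations. Csf1r, the receptor for the macrophage growth factors CSF1 and IL-34, was level, at 659 and 663 CPM, and so was Mrc1, the mannose receptor, at 594 and 534 CPM. F13a1, coagulation factor XIII A and 1 of the 4 resident genes of the rule, stood at 283 CPM in members, 37.8 in other macrophages and 1444 in resident macrophages.
Markers of other cell types were low for the most part. Summed fibroblast markers came to 234 CPM in members and 231 CPM in other macrophages, endothelial markers to 28.8 and 26.7, T and NK cell markers to 11.5 and 14.9, mesothelial markers to 11.2 and 12.2, and adipocyte markers to 14.6 and 16.6. Neutrophil markers came to 33.4 and 24.5 CPM, with 2 of 7 at 0 in members, and mast cell and basophil markers to 0.404 and 0.662 CPM, with 3 of the 4 in the table at 0. Mural markers were 54.7 against 19.3 CPM. Over the 9 populations they ranged from 0 to 505 CPM in members and from 4.89 to 42.6 CPM in other macrophages. B cell markers were 485 against 75.4 CPM, and a single cell supplied 99.2% of the Igkc reads and 70.2% of the Ighm reads of the members. Over the 9 populations the summed fibroblast markers ranged from 134 to 477 CPM in members and from 190.3 to 1620.5 CPM in other macrophages, and the B cell markers from 40.8 to 6944 CPM and from 29.0 to 904 CPM. Their part in the differences described here was not tested.

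Few members had several monocyte or dendritic identity genes on, and fewer other macrophages did by share. At least 2 of Plac8, Ly6c2 and Chil3 were on in 9 members (2.32%) and in 9 of 2633 other macrophages (0.342%). At least 2 of Cd209a, Flt3 and Zbtb46 were on in 1 member (0.258%) and 4 other macrophages (0.152%), against 32 of the 86 dendritic cells (37.2%). At least 3 of the 6 dendritic genes of the rule for dendritic cells were on in 11 members (2.84%) and 9 other macrophages (0.342%). Resident macrophages had higher shares than members on both dendritic counts, at 2 of 148 (1.35%) for the 3 genes and 7 of 148 (4.73%) for the 6. For Plac8, Ly6c2 and Chil3 the resident number was 0. Cells with under 3 macrophage genes and at least 3 monocyte genes on numbered 23 in the whole pool, too few to serve as a group. Doublet calling by Scrublet marked 2 members (0.515%).

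Against other macrophages, 142 of 3359 genes outside the rule (4.23%) were at least 2-fold higher in the members and 155 (4.61%) at least 2-fold lower, among genes with 50 CPM or more in the higher group. All ratios are of CPM plus 1 in summed reads, and since the rule was made from this same contrast, they describe the members and test nothing. Members came mostly from A0304, A0305 and A0307 and other macrophages mostly from A0308, A0309 and A0310. The ratio was therefore also taken inside each population, and the median of the 9 ratios kept 120 of the 142 and 131 of the 155 genes at 2-fold. In 130 genes (3.87%) the 2-fold higher level went with a higher level in 8 or 9 populations, and in 145 (4.32%) the 2-fold lower level with a lower one. In 100 genes (2.98%) the 2-fold higher level went with a higher level in all 9 populations, and in 104 (3.1%) the 2-fold lower level with a lower one. The 9 member values lay above all 9 other values in 83 genes (2.47%) and below them in 47 (1.4%). The populations with 12 to 28 members give rough values.

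Of 14 monocyte genes at 50 CPM, 5 were 2-fold higher and 0 lower, beside 4.23% higher and 4.61% lower over all 3359 genes. Their median ratio was 1.62, against 0.988 over all genes. Lyz1, a lysozyme, was 5571, 5078, 8853, 1417, 1704, 2155, 555, 815 and 2379 CPM in members of the 9 populations in the order given above, and 184, 289.7, 289, 786, 425, 485, 212, 249.9 and 479.7 CPM in other macrophages. Members were higher in each population, by 4.43-fold at the median, but the ranges overlapped because A0308 members were below A0304 other macrophages. Its relative Lyz2 was within 2-fold, at 15131 and 9704 CPM, and the high similarity of both genes means that reads could be split between them.
Fgr, a Src-family kinase of myeloid cells, stood at 68.7 against 16.5 CPM with no overlap between the 9 member values and the 9 other values. Napsa, an aspartic protease, was 74.7 against 17.7 CPM. Thbs1 (thrombospondin 1) was 57.2 against 15.2 CPM, but 1.91-fold once zeros were filled, and F10 (coagulation factor X) was 2.04-fold higher in sum and only 1.26-fold at the median within populations. The classical monocyte genes Ly6c2 and Plac8 were low, at 10.2 and 25.9 CPM, and Vcan was at 1.84 CPM. Of 11 chemokine receptor and adhesion genes 1 passed 2-fold, beside 4.23% higher over all genes. This was Icam1, with 172 against 58.9 CPM in 7 of 9 populations, while Ccr1 (71.2 and 36.2 CPM) and Itgam (617 and 466 CPM) were within 2-fold. Cx3cr1, the fractalkine receptor, was under 50 CPM in both groups, at 16.4 and 4.34 CPM.

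Fibronectin was among the largest differences. Fn1 stood at 4365, 4266, 4621, 2905, 2729.5, 2893, 508, 1247 and 1598 CPM in the members of the 9 populations. In other macrophages it stood at 410, 566, 366, 556, 299, 559, 122, 228 and 204 CPM. Fn1 was higher in members in all 9 populations, by 7.52-fold at the median, and only the A0308 members, at 508 CPM, lay within the range of the other macrophages.
In resident macrophages Fn1 was 283 CPM, the level of other macrophages, so this matrix transcript set the members apart from both. Ecm1 (extracellular matrix protein 1) was 2.34-fold higher, at 343 against 146 CPM. Of the 11 matrix and growth factor genes at 50 CPM 2 were higher and 2 lower, beside 4.23% and 4.61% over all genes. The lower ones were Plau, which encodes urokinase (36.0 against 90.3 CPM), and Anxa1 (1250.4 against 2592 CPM). Tgfb1 was level at 161 and 161 CPM.

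Of 10 genes of alternative activation, 3 were higher and 0 lower, beside 4.23% higher and 4.61% lower over all genes. Ear2, an eosinophil-associated ribonuclease, stood at 1663, 1544, 1298, 1451, 2359, 1585, 588, 651 and 850 CPM in members and at 91.7, 359, 185, 386, 426, 395, 48.6, 37.3 and 69.0 CPM in other macrophages of the 9 populations. The lowest member value, 588 CPM in A0308, exceeded the highest other value, 426 CPM in A0305, and resident macrophages held 239 CPM. Ear2 has close family members in the genome, so its reads may include theirs. Mgl2, a galactose-binding lectin also called CD301b, was 331 against 21.3 CPM, and it was higher still in resident macrophages (1072 CPM) and dendritic cells (908 CPM). With zeros filled the Mgl2 ratio falls from 14.9 to 4.83.
Ccl24 (eotaxin 2), a ligand of CCR3 that attracts eosinophils, was 98.7 against 5.29 CPM in sum, with 535 CPM in resident macrophages, and its filled ratio was 2.88 against 15.9. Its member values ran from 3.26 CPM in A0308 to 405 CPM in A0303. Among 12 chemokine ligands Ccl24, Ccl2 and Ccl7 were higher and none was lower, beside 4.23% higher and 4.61% lower over all genes. Ccl2, itself the ligand of CCR2, was 403 against 186 CPM and Ccl7 132 against 47.1 CPM, and with zeros filled both fell under 2-fold, to 1.89 and 1.94. Ccl6 (4874 and 2731 CPM) and Ccl9 (3739 and 2908 CPM) were within 2-fold, though higher in members in 9 of 9 populations. Arg1, the arginase of alternative activation, was under 50 CPM in both, at 17.6 and 21.2 CPM. Of 3 genes of the resistin-like, Ifitm and phospholipase B families at 50 CPM, Ifitm3 was higher, at 797 against 197 CPM, and Ifitm2 and Plbd2 were within 2-fold. None of the 8 genes of the Cd226 pathway reached 50 CPM in either group, and Pvr, a ligand of CD226, came nearest, at 49.9 and 37.2 CPM.

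MHC class II genes, which present peptides to CD4 T cells, had the highest median ratio of the lists other than the cell type markers. Of 11 at 50 CPM, 9 were 2-fold higher and 0 lower, beside 4.23% and 4.61% over all genes. The median ratio was 3.02 in sum and 2.69 within populations. H2-Ab1, the beta chain of I-A, was 7967, 7543, 8173, 7656, 7623, 6125, 5199.7, 7289 and 5627 CPM in members of the 9 populations and 1761, 3611, 1407, 2785, 2661, 2565, 3618, 1844 and 937 CPM in other macrophages. The member values lay close together and all above the other values, whose highest was 3618 CPM in A0308. The alpha chain H2-Aa (7346 against 2799.6 CPM), H2-Eb1 (5747 against 1897 CPM) and the invariant chain Cd74 (14034 against 4937 CPM) were also without overlap.
H2-DMa (718 against 187 CPM), H2-DMb1 (689 against 227 CPM) and H2-DMb2 (70.0 against 7.62 CPM), the parts of the peptide editor H2-M, were likewise higher in all 9 populations. Ciita, the transactivator of these genes, was 2.43-fold higher and the costimulator Cd86 3.64-fold. Dendritic cells stood higher still, with 12295 CPM of H2-Ab1. Against resident macrophages only 4 of 11 MHC class II genes at 50 CPM were 2-fold higher in members and 0 lower, and the rest were within 2-fold. The shares over all genes in that comparison were 6.12% higher and 6.24% lower. Of 4 conventional dendritic cell genes at 50 CPM, Batf3 (128 against 31.4 CPM) and Cd24a (127 against 14.3 CPM) were higher, while Itgax, which encodes CD11c, was 206 against 400 CPM and lower in members in all 9 populations.

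Inflammatory genes were for the most part within 2-fold. Of 11 at 50 CPM 7 were within 2-fold, 3 were higher and 1 was lower. The shares over all genes were 4.23% higher and 4.61% lower. Clec4e, which encodes the receptor Mincle, was 99.5, 151, 76.3, 109, 91.1, 119, 139, 63.6 and 107 CPM in members and 0.559, 0.883, 5.69, 11.9, 20.6, 16.6, 22.7, 13.4 and 13.5 CPM in other macrophages of the 9 populations, with no overlap. Its resident level was 5.51 CPM. Il1b was 227 against 16.2 CPM, with a filled ratio of 4.30 in place of 13.3, and Tlr2 was 79.7 against 33.4 CPM. Clec4d, a lectin that pairs with Mincle, went the other way, at 40.8 against 172 CPM, and passed the minimum only through other macrophages. Tnf was within 2-fold, at 68.0 and 85.7 CPM.
Among 10 complement and Fc receptor genes 2 were higher and 3 lower, beside 4.23% and 4.61% over all genes. The higher ones were Cfp (properdin, 810.1 against 215 CPM) and Fcgr2b (the inhibitory Fc receptor, 361 against 133 CPM). The lower genes included C3ar1, the receptor for the complement fragment C3a (221 against 542 CPM), and the high-affinity receptor Fcgr1 (28.4 against 79.7 CPM). Of 19 transcription factors 4 were higher and 0 lower, beside the same shares over all genes. The higher ones were Bhlhe40 (248 against 97.0 CPM, without overlap) and the orphan nuclear receptors Nr4a1, Nr4a2 and Nr4a3. Nr4a1 was 2.26-fold higher but in only 6 of 9 populations, and 1.92-fold with zeros filled.

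Genes of lipid-associated macrophages were lower as a group. Of 21 at 50 CPM, 17 were 2-fold lower and 0 higher, beside 4.61% lower and 4.23% higher over all genes. Their median ratio was 0.388, and 19 were lower in at least 8 of 9 populations. Trem2, a lipid-sensing receptor, was 143, 181, 147, 404, 368, 454, 818, 1223 and 564 CPM in members of the 9 populations and 1470.4, 1089.7, 1517, 1387, 1383, 1490.2, 1403, 1682 and 1399 CPM in other macrophages. Other macrophages held nearly the same level everywhere, whereas member levels were lowest in A0301, A0303 and A0302 and highest in A0309, where they entered the range of the others.
Gpnmb, a transmembrane glycoprotein of lysosome-rich macrophages, was 126, 114, 212, 449.7, 445, 757, 352, 427 and 942 CPM in members and 2539, 989, 1742, 4583, 3700, 4358, 1395, 2364 and 3855 CPM in other macrophages, with no overlap. The ratio of other macrophages to members was 6.55 for Gpnmb, 6.59 for the protease cathepsin K (Ctsk), 6.38 for osteopontin (Spp1), 4.18 for cathepsin L and 3.37 for the tetraspanin Cd9. A single member cell supplied 35.7% of the members' Ctsk reads, and the Spp1 ratio with zeros filled is 2.67. Apoe, the lipid carrier, was 2049.8 against 5530.4 CPM without overlap, the fatty acid carrier Fabp5 278 against 809.7, and the scavenger receptor Cd36 2839 against 6299.6. Mmp12, macrophage elastase, was 1059 against 3011 CPM. Lpl, Plin2, Fabp4 and Hmox1 were within 2-fold, with Lpl at 4006 and 7183 CPM.

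Most resident macrophage genes that the rule did not use and that reached 50 CPM were also lower than in other macrophages. Of 18 listed genes 7 reached 50 CPM. Of these 7, 6 were lower and 0 higher, beside 4.61% and 4.23% over all genes. Listed genes under 50 CPM in both groups went both ways. Cd209d (8.75 against 0.957 CPM) and Cd209b (4.04 against 0.498 CPM) were higher in members. Vsig4 (0.331 against 12.6 CPM) and Fcna (16.5 against 21.7 CPM) were lower. Folr2, a folate receptor, was 132 against 486 CPM, Selenop (selenoprotein P) 1293 against 3414, and Stab1, a scavenger receptor, 54.7 against 189. Gas6, a ligand of the TAM receptors, was 17.1 against 63.7 CPM, but its ratio with zeros filled is 0.818. It passed the minimum of 50 CPM only through other macrophages. Igf1 and Ninj1 were 0.473 and 0.471 of the level in other macrophages, and 0.574 and 0.624 at the median within populations.

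**Figure D3:**
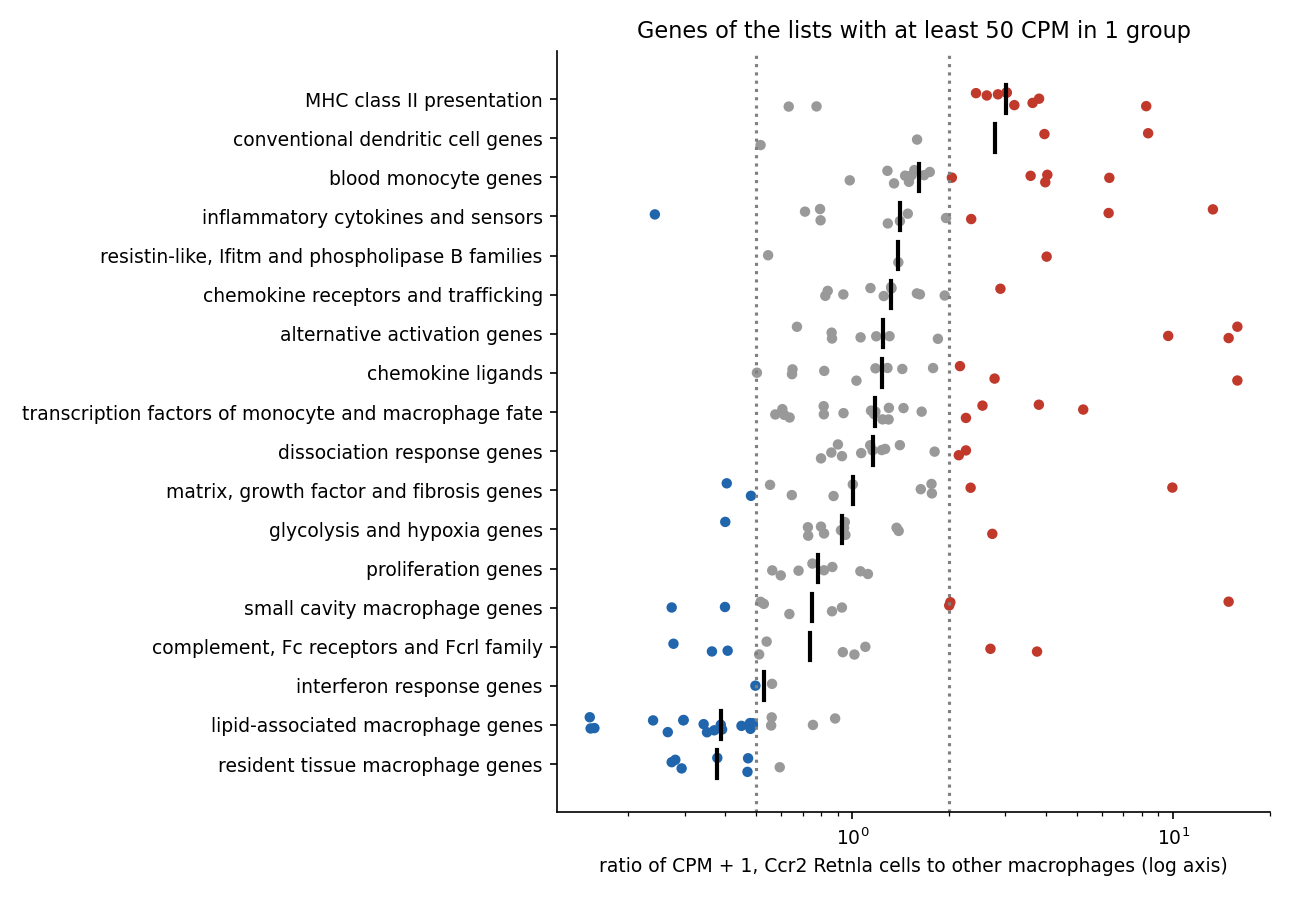
Ratio of members to other macrophages for each gene of the lists with at least 50 CPM in 1 group, on a log axis. Each point is a gene, colours mark genes past 2-fold (dotted lines), and the black bar is the list's median. MHC class II genes sit at a median of 3.02 and lipid-associated macrophage genes at 0.388.

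None of 8 proliferation genes passed 2-fold, and Mki67 or Top2a was on in 15.5% of members and 17.9% of other macrophages. Of 12 glycolysis and hypoxia genes 1 was higher (Hif1a, 131 against 47.4 CPM) and 1 lower (Hk3, 46.7 against 118 CPM). Of 2 interferon response genes 1 was lower (Ifi204), and no large cavity macrophage gene reached 50 CPM in either group. Of 10 small cavity macrophage genes 3 were higher and 2 lower, against 4.23% higher and 4.61% lower over all genes, the higher ones being Mgl2, Clec4b1 and Slamf9 and the lower ones Folr2 and Ms4a6d. The genes of cell dissociation, which respond to tissue digestion, gave 2 higher of 13 (Ier2 and Nr4a1), and Fos was level at 2172 and 2411 CPM.

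Outside the lists, the genes with the largest ratios and the same direction in at least 8 populations came from several functions. Lsp1, a leukocyte actin-binding protein, was 988 against 79.9 CPM, and its lowest member value, 521 CPM in A0309, stood far above its highest other value, 126 CPM. Lsp1 was higher still in dendritic cells, at 2306 CPM, and stood at 743 CPM in T cells and 589 CPM in fibroblasts. Ltb4r1, the receptor for the chemoattractant leukotriene B4, was 57.8 against 1.09 CPM, with 108 CPM in dendritic cells and 153 CPM in T cells. Aldh1a2, which makes retinoic acid, was 158 against 13.2 CPM and 16.9-fold higher at the median within populations.
Hcar2, the niacin receptor, was 52.8 against 2.12 CPM, and Cd2, an adhesion receptor better known from T cells, 103 against 7.50 CPM. Gda (guanine deaminase) was 504 against 97.3 CPM and Batf, a relative of Batf3, was 5.51-fold higher. The remaining higher genes by this rule were Hr, Ms4a8a, Glipr2, Slc2a6, Lilra6, Net1, Samsn1 and Gfra2, with ratios from 5.44 to 11.9. Resident macrophages were within 2-fold of members for Gda (469 CPM), Batf (62.3), Samsn1 (69.3), Ms4a8a (58.0), Hcar2 (38.5) and Gfra2 (90.8). The others of these higher genes were at least 2-fold above resident macrophages. Against dendritic cells, Cd2, Aldh1a2, Ms4a8a and Gda were 2-fold higher in members and Lsp1 and Batf 2-fold lower. The others were within 2-fold.
In the other direction, Mfge8, a bridge protein for the uptake of dying cells, was 55.8 against 453 CPM. Cpe (carboxypeptidase E) was 22.0 against 209 CPM, Rnf128 94.4 against 454, Hpgds (prostaglandin D synthase) 50.7 against 205, and Ms4a7, a membrane protein of mature macrophages, 54.5 against 270.4. Serpinb9b, Serpinb6b and Zranb3 were at 9.30, 7.90 and 5.28 to 1 in favour of other macrophages, but at 1.30, 1.88 and 1.87 with zeros filled. Filling also took the ratio in favour of other macrophages from 9.12 to 2.67 for Cpe, from 4.77 to 2.84 for Rnf128, from 4.89 to 2.47 for Ms4a7 and from 7.01 to 2.84 for Akr1b8. The other lower genes were Akr1b8, Syngr1, Cadm1, Wfs1, Igf2bp2, Prnp and Cd72.

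Resident macrophages were the other Retnla-rich macrophages of the pool, and their own genes were high in them by choice of the list. Of 3380 genes, 207 (6.12%) were 2-fold higher in members and 211 (6.24%) 2-fold lower. Of the resident list, 14 genes reached 50 CPM in this comparison and 7 in that with other macrophages, so part of them passed the minimum only through the resident cells, and their lower level in members is a description. Among them Vsig4 was 0.331 against 55.1 CPM, Fcna 16.5 against 626 and Cd209d, a lectin, 8.75 against 421. Ltc4s, which makes leukotriene C4, was 16.0 against 593 CPM.
Higher in members were Clec4e (16.4-fold), Fgr (11.0-fold), Mmp12 (1059 against 100 CPM), Fn1 (9.92-fold), Thbs1 (9.44-fold) and Aldh1a2 (158 against 19.4 CPM). The ratios to resident and dendritic cells are given without filled zeros, and Thbs1 is a gene that filling moves, as given above. Of 21 lipid-associated genes 8 were higher in members than in resident cells and 3 lower, and Apoe was the reverse of Mmp12, at 9756 CPM in resident cells. Resident cells were shallower, with a median of 30801.5 reads, and had a median of 7.57% mitochondrial reads against 4.41% in members. Of 14 genes of cell dissociation, 7 were 2-fold lower in members than in resident cells and 0 higher. The part of depth, mitochondrial reads and dissociation in these differences was not tested.

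Dendritic cells held Ccr2, Cd226 and Ifitm6 at levels near those of the members. Of 3640 genes, 351 (9.64%) were 2-fold higher in members and 347 (9.53%) lower. Apoe stood at 2049.8 CPM in members and 23.5 in dendritic cells, and Cd36 at 2839 and 43.7 CPM. Mmp12 and C3ar1 are listed at 0 in the 86 dendritic cells. Of 21 lipid-associated genes 19 were higher in members and 0 lower.
Flt3 and Cd209a, which are part of the rule for dendritic cells, were 1.62 and 40.1 CPM in members and 194 and 1501 CPM in dendritic cells. Ccl17, a chemokine for CCR4, was 7.83 against 670 CPM, and Ccr7, the receptor for migration to lymph nodes, is listed at 0 in members against 50.1 CPM. Kmo, a kynurenine enzyme, was 4.56 against 209.8 CPM. Of 14 MHC class II genes 1 was higher and 5 were lower in members.

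**Figure D4:**
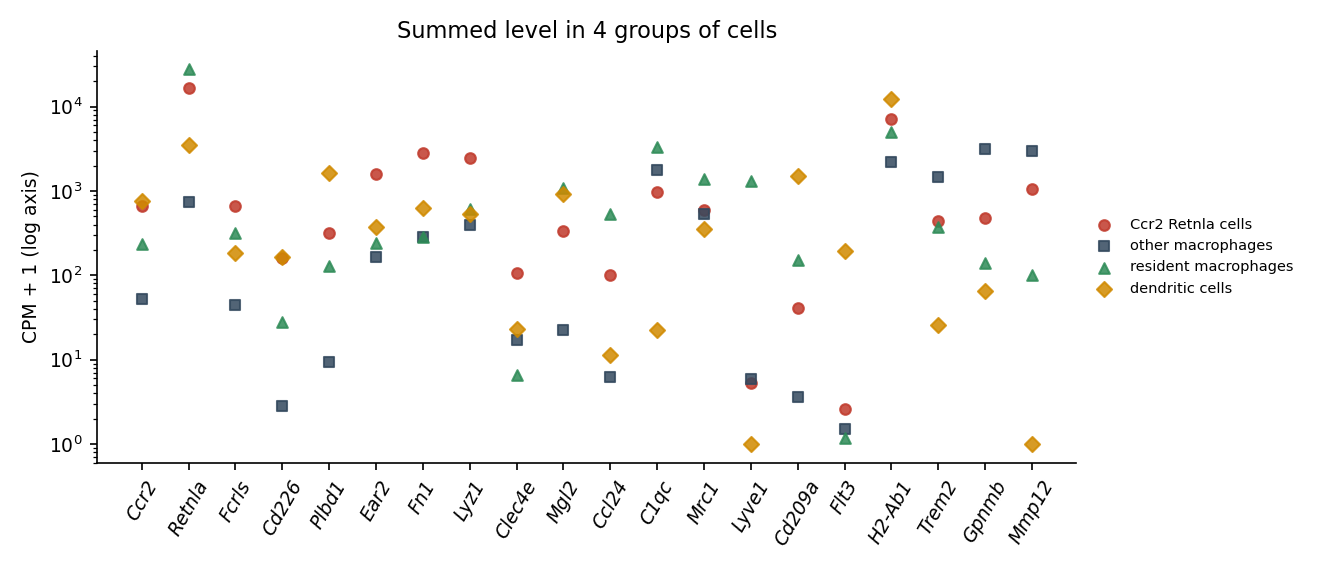
Summed level of 20 genes in members, other macrophages, resident macrophages and dendritic cells, as CPM plus 1 on a log axis. Fcrls, Ear2, Fn1, Lyz1 and Clec4e are highest in members, Retnla, Mgl2, Ccl24, C1qc and Lyve1 in resident macrophages, and Plbd1, Cd209a, Flt3 and H2-Ab1 in dendritic cells.

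The members were graded and not uniform. From cells with 3 rule genes on to cells with all 6, Fn1 stood at 1409, 2436, 3199.6 and 5123 CPM. Lyz1 went from 1142 to 4653 CPM, Lsp1 from 446 to 1725, Cd24a from 32.1 to 289 and Aldh1a2 from 72.5 to 310.5, each higher at every step. Trem2 stood at 766, 449, 177 and 123 CPM over the same steps.
Mmp12 went from 1789 to 158 CPM, Apoe from 3424 to 714, Cd36 from 4473 to 1049 and C1qc from 1305 to 558, each lower at every step. H2-Aa did not follow the order, with 5995, 8201, 8863 and 7470.1 CPM. The 4 classes differ in depth, with median reads of 43098.5, 48340, 60169 and 76207, and in origin: the 74 cells with all 6 genes on came from A0301 (7), A0302 (11), A0303 (8), A0304 (18), A0305 (21) and A0307 (9), and 0 from A0308, A0309 and A0310. The part of depth and origin in this grading was not tested.

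**Figure D5:**
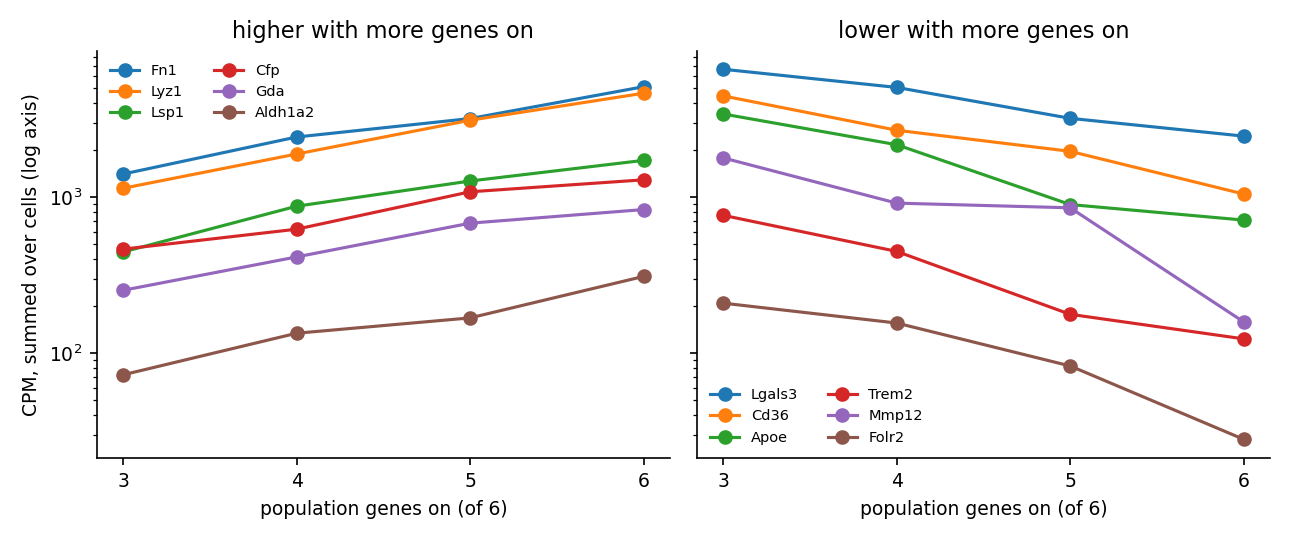
Summed level of 12 genes in members with 3, 4, 5 or 6 of the rule genes on (148, 83, 83 and 74 cells), in CPM on a log axis. Fn1 runs from 1409 to 5123 CPM in the left panel and Trem2 from 766 to 123 CPM in the right panel.

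Splitting the members by single rule genes gave different contrasts. Retnla was on in 329 members and off in 59, with near-equal median depth (54189 and 55977 reads). Because of the gap in the Retnla counts given above, a cell counted as off can still hold Retnla reads. The 59 cells with Retnla off held more Plac8, a monocyte gene (129 against 8.83 CPM). They also held more Cx3cr1 (50.0 against 10.8 CPM) and Thbs1 (133 against 44.5 CPM), and less Ccl7 (29.2 against 149 CPM) and Hcar2 (10.1 against 59.9 CPM). Cells with Retnla off are members only through 3 of the other 5 rule genes, so the rule itself bears on their Ccr2 level and on genes that vary with it.
Cd226 was on in 164 members and off in 224. Cells with Cd226 held less Igf1 (51.1 against 349.6 CPM), Folr2 (37.8 against 220.2 CPM) and Spp1 (9.71 against 91.6 CPM), and more Fn1 (3907 against 1791 CPM) and Cd24a (198 against 60.3 CPM). These 2 classes differ in depth, with median reads of 70713 and 43974.5.

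Across the 388 member cells thinned to 5000 reads, several of the lipid and lysosome genes varied together. Spearman's rho was 0.63 for Ctsd and Lgals3, 0.60 for Lpl and Cd36, 0.59 for Cd36 and Lgals3 and 0.53 for Cd36 and Trem2. Other genes of the same list followed less closely. Gpnmb with these genes gave 0.22 (Lpl) to 0.32 (Ctsd). Apoe gave -0.03 with Lpl, 0.11 with Lgals3, 0.14 with Ctsd, 0.23 with Cd36 and 0.36 with Trem2. H2-Aa with Cd74 gave 0.73, Fn1 with Lyz1 gave 0.46 and Fn1 with Apoe gave -0.44. Retnla and Fcrls gave 0.46, whereas Retnla and Ccr2 gave 0.11. The cells share 1 library, differ in hashtag population and were chosen by some of these genes, and the values are descriptions.

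The level of several genes in members differed between hashtag populations as much as it did between members and other macrophages. Mmp12 in members was 178, 69.4, 70.1, 1061, 872, 1531, 365, 982 and 4842 CPM, in the usual order. The A0301, A0302 and A0303 members held the least and A0310 members the most. In other macrophages Mmp12 was 3233, 1791, 4209, 3408, 2565, 3422, 702, 1302 and 6313 CPM, so members were lower in every population, while A0310 members exceeded the other macrophages of all populations except A0310.
Cd36 in members was 1460.3, 1157, 1308, 2747, 2782, 2706, 4337, 4997 and 5409.7 CPM. It was lowest in A0302 and highest in A0310, whereas Retnla was lowest in A0310. Lyz1 and Fn1, given above, were highest in A0303. Folr2 in members ran from 28.2 CPM in A0301 to 513 CPM in A0308.

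The hashtag library gave counts that the rule did not use. TotalSeq hashtag antibodies for mouse cells are made against CD45 and MHC class I. What sets the number of hashtag counts on a cell was not tested. The median count of the hashtag that names the population was 16177, 14988, 7810, 10495.5, 10855, 5692, 3002, 6141.5 and 6372.5 in members of the 9 populations in the order given above. In other macrophages it was 3011, 2543, 1653, 4383.5, 2517, 1671, 1015, 1102.5 and 1917. Members were higher in 9 of 9 populations, by 2.39-fold (A0304) to 5.89-fold (A0302) with a median of 4.31-fold. Over all populations together the median hashtag count was 8969 in members and 1656 in other macrophages. It was 3136 in resident macrophages and 6662 in dendritic cells.
The most abundant hashtag equalled the authors' call in 382 of 388 members (98.5%). The transcripts of the antibody targets, named after the hashtag counts were seen, differed less: Ptprc, which encodes CD45, was 646 against 425 CPM, higher in members in 9 of 9 populations by 1.63-fold at the median. H2-D1 was 2209 against 2062 CPM, H2-K1 823 against 775 and B2m 2181 against 2781.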

How the data were processed

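Stromal vascular cells of 1 pool were measured as a transcriptome and a hashtag library. The authors deposited whole-number counts per gene and cell and counts per hashtag and cell barcode; the steps for calling cells, doublets and hashtags were not given in the sources used here. Build GRCm38 and the tools cutadapt 2.10, R 3.6.3 and Bowtie2 2.4.2 are named in the submitters' processing notes. The counts were treated as reads, since no collapse to molecules is recorded, so Poisson and binomial intervals cover counting error only and are too narrow. Of 18090 genes with a read in over 100 cells, 389 have no value under 5, and a 0 of such a gene can hide reads; an alternative set each 0 to the lowest nonzero value minus 1 read.

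Members were found by the rule in Python 3.11.15 (numpy 2.4.6, scipy 1.17.1, pandas 2.3.3) among columns with the authors' hashtag call; the mitochondrial limit removed 1229 cells, and 12 columns without a call were not used. Doublet-called columns (278) were left out, and Scrublet in scanpy 1.11.5 (expected rate 0.05) marked 233 of 10521 kept cells (2.21%), which stayed in. Reads were summed per group and scaled to CPM, and ratios were taken of CPM plus 1. With 1 sample no test was run. Members and the 20 gene lists and 9 marker lists were chosen with earlier results of these data known. Named genes were those of the rule, any of the lists (at least the 3 with the largest ratios per list) and, outside them, the 15 with the largest ratio in each direction with the same direction in at least 8 of 9 populations; gene models without a common name, mitochondrial, ribosomal and immunoglobulin genes were left out, and the leading genes against resident and dendritic cells were named after their values were seen. Of 411 listed genes, 406 are in the table. Alternatives changed the threshold for a gene being on, the number of rule genes, depth, the pseudocount, the level minimum and how cells were averaged, and left out each population in turn. Some genes of the lists are not reported here.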

Additional observations from a re-analysis of the deposited data

How the results depend on the processing

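The share of members among macrophages, 12.2%, was 14.2% with genes on at 25 CPM, 10.4% at 100 CPM, 7.57% with at least 4 of the 6 genes required and 9.35% with the rule applied to cells thinned to 5000 reads. Leaving out each hashtag population in turn gave 10.3% (without A0305) to 15.2% (without A0309). The 142 higher genes became 256 with a minimum of 20 CPM and 41 with 200 CPM. The 155 lower genes became 286 and 58 at these minimums and 293 with at least 4 genes required. The other alternatives moved both counts by less than 1.5 times. The median of the ratios within populations, chosen after seeing the data, gave 128 and 169. Of 102 named genes past 2-fold, 8 fell under it with the mean of per-cell CPM, 9 with the median over populations, 14 with zeros filled, 9 with thinned cells and 9 with the median within populations, and 0 turned direction. Depth limits genes under 50 CPM, and the 12 to 28 members of A0301, A0302, A0303, A0308, A0309 and A0310 limit every value given for those populations.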

Other observations

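The values of the share of members among macrophages fell into 3 ranges over the 9 hashtag populations: 54.9%, 44.2% and 38.8% in A0301, A0302 and A0303, 25.1%, 24.9% and 17.6% in A0304, A0305 and A0307, and 2.66%, 1.74% and 2.97% in A0308, A0309 and A0310. The interval of A0303 (27.1 to 51.5) overlaps those of A0304 (20.5 to 30.1) and A0305 (20.8 to 29.3). Retnla in members fell into ranges of the same make-up, at 22937, 34724 and 41497 CPM, then 15414, 14962 and 16857 CPM, then 4845, 5649 and 1994 CPM. Cd36 in members did so in the opposite order, at 1460.3, 1157 and 1308 CPM, then 2747, 2782 and 2706 CPM, then 4337, 4997 and 5409.7 CPM. Other genes did not fall into these ranges: Ccr2 in A0309 members (710 CPM) lay above A0304, A0305 and A0307 (631, 607 and 630.2 CPM), Mmp12 in A0308 and A0310 (365 and 4842 CPM) lay on either side of them (1061, 872 and 1531 CPM), and Lyz1 in A0310 (2379 CPM) lay above them (1417, 1704 and 2155 CPM). The share of all kept cells was highest in A0305, A0304 and A0307. Retnla and Cd36 were named after their values were seen. Retnla is also a gene of the rule that chose the members, so its level in them and their share are not independent. These are values of single populations that carry no label of their own.

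The following 3 genes under the minimum of 50 CPM, picked after their values were seen, are given as values only. Irf4, a factor induced by interleukin 4, was 37.7 CPM in members and 9.37 CPM in other macrophages and was higher in 9 of 9 populations. Il6 was 12.6 against 0.632 CPM, in 7 of 9 populations. Cd209a was 40.1 against 2.64 CPM, also in 7 of 9. The deposited table has 278 columns with a doublet call, of which 254 passed the mitochondrial limit and 2 met the whole rule.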
